A study of Mus musculus with 412 samples.

Results

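Nrp1 Trpa1 neurons are mouse colonic sensory neurons in which 2 receptor genes were read together: Nrp1, which encodes neuropilin 1, a co-receptor for class 3 semaphorins and for vascular endothelial growth factor, and Trpa1, which encodes the irritant-gated cation channel TRPA1. Members were picked from single-cell transcriptomes by 3 conditions, namely at least 9500 genes above 0, Nrp1 at 10 TPM or more (TPM is a length-corrected level rescaled to the same total of 1000000 in every neuron) and Trpa1 at 10 TPM or more. They numbered 90 of the 325 neurons in the expression table, of which 279 reached the gene minimum. Of these 90 neurons, 68 were labelled thoracolumbar (TL) and 22 lumbosacral (LS), so that neurons of 1 marker combination could be set side by side at both spinal levels.

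The neurons came from C57BL/6J mice in which the retrograde tracer Fast Blue had been injected into the colon wall, and labelled cell bodies were later picked by hand from dissociated dorsal root ganglia. TL ganglia (T10-L1) carry the fibres that reach the colon through the lumbar splanchnic nerve, and LS ganglia (L5-S2) those of the pelvic nerve. The ganglia of the 2 levels were cultured apart, so the spinal level and the culture cannot be told apart. The labels name neither the mouse nor the culture of a neuron, so each level counts as 1 sample, and no p-value, standard error or count of significant genes is given. Error bars of the usual kind are replaced by the spread over neurons, by the standard deviation (SD) over plates as a description and, for shares of neurons, by exact 95% intervals (Clopper-Pearson) that reflect counting error alone. Where no neuron reached 10 TPM, the upper limit of the share is approximate, at 3 divided by the number of neurons.

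Peptidergic nociceptors are sensory neurons that release calcitonin gene-related peptide (Calca, Calcb) and substance P (Tac1) in the periphery and in the dorsal horn. In visceral organs many of them carry the capsaicin receptor Trpv1 and respond to inflammatory mediators. Their position along the body axis is written in the Hox genes, homeobox transcription factors that are switched on in the order of their place in 4 chromosomal clusters, those with higher numbers toward the tail.

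Among neurons that reached the gene minimum, the combination was present in 68 of 139 TL neurons (48.9%, interval 40.4 to 57.5%) and in 22 of 140 LS neurons (15.7%, 10.1 to 22.8%). The TL share lay between 40.0 and 54.5% on 6 plates. The LS share was 36.4% on plate 3, where 8 of the 22 LS members lay, and 5.56 to 18.2% on the other 4 plates that held LS neurons. Because Nrp1 and Trpa1 chose the members, their levels are given as a description. Nrp1 had a median of 44.9 TPM (10.8 to 165) in TL and 49.6 TPM (14.2 to 98.7) in LS members. Trpa1 had a median of 406 TPM (10.5 to 1627) in TL and 358 TPM (14.2 to 1076) in LS members. The lowest Nrp1 value inside the rule was 10.8 TPM and the highest outside it, among neurons with Trpa1, was 9.34 TPM. For Trpa1 these values were 10.5 and 7.57 TPM. Neurons with Trpa1 but not Nrp1 numbered 31 in TL and 34 in LS, and neurons with neither gene numbered 4 in TL and 73 in LS.

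**Figure D1:**
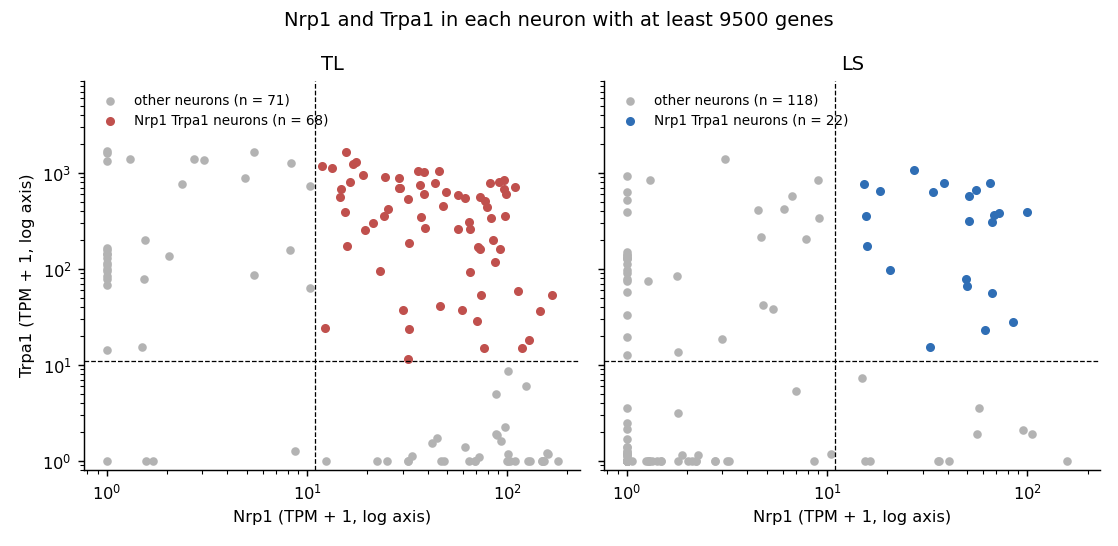
Nrp1 (horizontal) and Trpa1 (vertical) in TPM + 1 on log axes, 1 point per neuron with at least 9500 genes above 0, TL on the left and LS on the right. Dashed lines mark 10 TPM, coloured points are the 68 TL and 22 LS members, and the lower left corner holds 4 TL but 73 LS neurons with neither gene.

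TL and LS members were compared within library plates, since neurons of both levels shared plates. The 4 plates with at least 2 members of each level (plates 3 to 6) gave 54 TL and 21 LS neurons. For each gene the mean log2(TPM + 1) of TL members was subtracted from that of LS members on each plate, and the 4 differences were averaged with equal weight; a positive value is higher in LS. A gene was counted as past the fold where the average difference was at least 1 and had the same sign on all 4 plates. Reads recovered from the table numbered 882300 to 7896090 per TL neuron (median 2664640) and 416007 to 7079290 per LS neuron (median 3150360). A median of 13829 genes in TL and 14110 genes in LS neurons lay above 0. No pair of neurons in the table had identical values.

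Both levels were peptidergic by all 10 markers examined, and most of these markers did not separate the levels. Calca was at or above 10 TPM in all 54 TL and all 21 LS members, with medians of 25316 and 28842 TPM. Calcb was likewise at or above 10 TPM in every member, with medians of 2664 TPM in TL and 3145 TPM in LS. Gfra3, the receptor for artemin, reached 10 TPM in 49 of 54 TL (90.7%) and 19 of 21 LS members (90.5%). Among all other neurons on these plates Gfra3 reached 10 TPM in 37.9% of 58 TL and 46.5% of 101 LS neurons. Calcb and Prph reached 10 TPM in all of those other neurons, and Prph had medians of 3161 TPM in TL and 4031 TPM in LS others, beside 3015 and 3777 TPM in members. The mean profile of LS members over 7617 genes correlated with that of TL members at r = 0.97, with that of LS neurons having Trpa1 without Nrp1 at r = 0.96, and with that of TL neurons having Trpa1 without Nrp1 at r = 0.93. These coefficients are across genes, which are not independent, and the profiles share plates. Of the 10 markers, 2 were past the fold, both higher in LS, against 1.08% of all 7617 genes tested that were past the fold and higher in LS. These were Tac1, with a median of 2652 TPM (0.149 to 6045) in TL and 3667 TPM (1332 to 6836) in LS, and Trpv1, with a median of 796 TPM (0.24 to 2058) in TL and 1174 TPM (362 to 1970) in LS. The values of both genes overlapped widely between levels, and the difference was 1.37 ± 0.30 (SD over 4 plates) for Tac1 and 1.08 ± 0.55 for Trpv1. As a log2 ratio of mean TPM, the differences were 0.70 for Tac1 and 0.57 for Trpv1. In members with under 500 TPM of satellite glia genes neither reached 1 (0.57 for Tac1 and 0.19 for Trpv1), and without plate 5 Trpv1 differed by 0.94. The median difference over the 10 markers was 0.37, beside -0.02 over all genes tested.

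The mPEPb list, made of 10 marker genes that the study drew from these same neurons and therefore no independent evidence, had none of its 10 genes past the fold in either direction. Ntm, a neuronal adhesion molecule, reached 10 TPM in 0 of 54 TL and 0 of 21 LS members, which allows shares of up to 5.56% and 14.3%, while it did in 34 of the 101 other LS neurons. Voltage-gated sodium channel genes also lay near each other at the 2 levels. None of the 7 tested was past the fold, and their median difference was 0.09. Scn10a, which encodes the tetrodotoxin-resistant channel Nav1.8, had medians of 188 TPM in TL and 199 TPM in LS, and Scn9a, which encodes Nav1.7, had medians of 68.8 and 72.5 TPM. None of the 7 calcium channel genes, the 8 growth factor receptor genes or the 9 glutamate and GABA receptor genes tested was past the fold.

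Of the 7617 genes tested, 230 (3.02%) were past the fold. Of these, 82 (1.08%) were higher in LS and 148 (1.94%) higher in TL members. These shares of all genes tested are the background for every list count. Overlap was examined only among these 230 genes, and values of the 2 levels did not overlap for 2 of them, Hoxd10 and Hoxc10. The share without overlap over all genes tested was not computed. The count depended on scaling. With the deposited values left unscaled, 138 genes were higher in LS and 113 higher in TL, and with the log2 ratio of mean TPM 43 were higher in LS and 175 higher in TL.

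**Figure D2:**
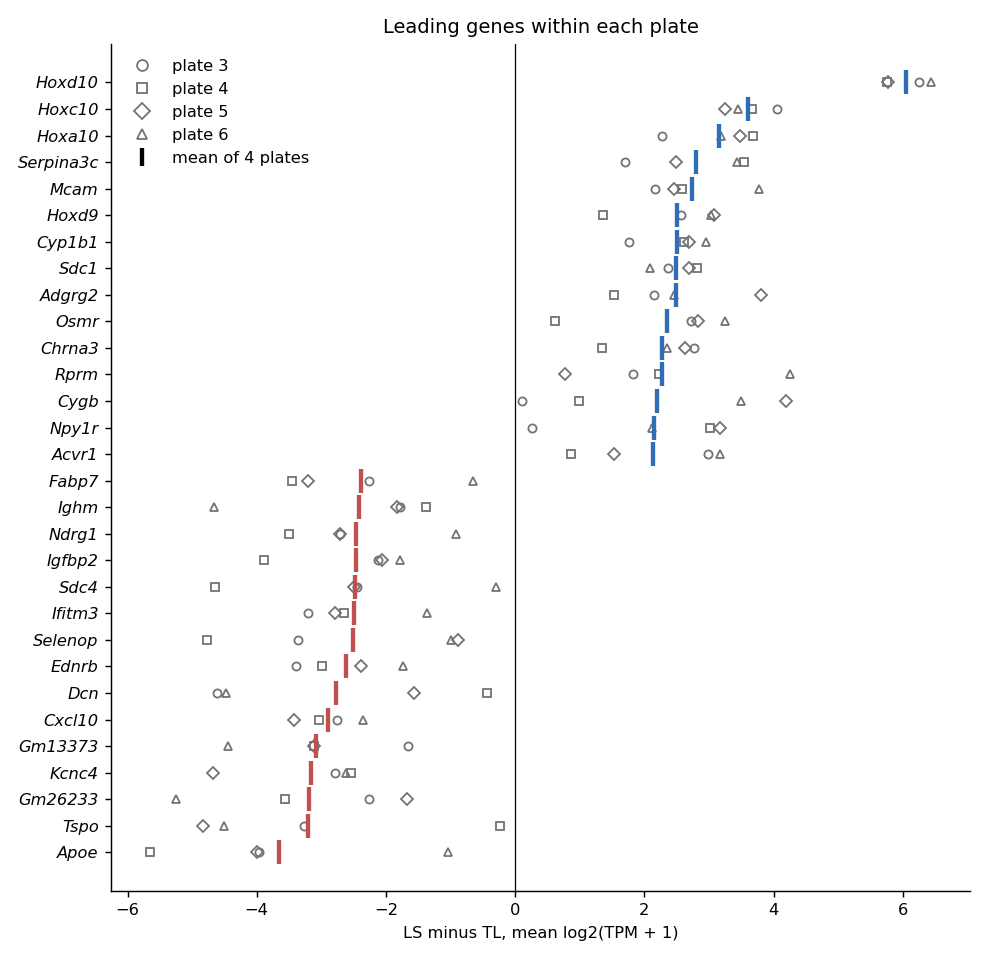
Difference LS minus TL in mean log2(TPM + 1) for the 15 genes with the largest average difference in each direction. Open symbols are the 4 plates and bars their mean, blue for genes higher in LS and red for genes higher in TL. Hoxd10, at 6.06, stands apart from all other genes, and several genes have 1 plate close to 0.

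Hox genes gave the largest difference between TL and LS Nrp1 Trpa1 neurons. Hoxd10 (ENSMUSG00000050368, GRCm38 chr2:74691924-74695105, plus strand) had a median of 68.2 TPM (36.8 to 168) in LS members. In TL members it was at 0 in 52 of 54, at 0.513 TPM in 1 and at 27.0 TPM in 1. The levels did not overlap, and the difference was 6.06 ± 0.35, with plate values between 5.75 and 6.44. The TL member at 27.0 TPM lay on plate 5 and also had Hoxa10 at 16.6 TPM, Hoxd9 at 17.3 TPM and Hoxc10 at 1.06 TPM. Without it the Hoxd10 difference was 6.16, and 88 genes were higher in LS and 148 in TL.

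Hoxc10 (ENSMUSG00000022484, chr15:102966796-102971893, plus strand) had a median of 12.7 TPM (4.07 to 31.7) in LS and did not pass 1.06 TPM in TL, where it was at 0 in 52 neurons. No TL member reached 10 TPM, which allows a share of up to 5.56%. The difference was 3.60 ± 0.34. Hoxa10 (chr6:52231197-52240854, minus strand) had a median of 15.3 TPM (4.47 to 31.0) in LS and 0.0646 TPM (0 to 22.8) in TL, with a difference of 3.16 ± 0.63. These 3 genes were the tested members of the Hox 10 to 13 list. All 3 of 3 were past the fold and higher in LS, beside 1.08% of all genes tested. Each reached the mean of 10 TPM required for testing only through LS. Their TL means were 0.51 TPM for Hoxd10, 0.03 TPM for Hoxc10 and 2.34 TPM for Hoxa10. This count was therefore largely set by the filter and is no result about the list. Hoxd11 was below the mean of 10 TPM required for testing. It was above 0 in all 21 LS members, with 9.05 TPM as median, and above 0 in 1 of 54 TL members.

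Of the Hox 8 and 9 list, 2 of 3 tested genes were past the fold and higher in LS, beside 1.08% of all genes tested. Of these, Hoxd9 reached the mean for testing only through LS, with means of 28.1 TPM in LS and 5.30 TPM in TL. Hoxd9 had a median of 27.7 TPM (4.27 to 70.3) in LS and 3.93 TPM (0 to 18.3) in TL, with a difference of 2.51 ± 0.80. Hoxa9 had medians of 15.8 and 10.2 TPM in LS and TL, and its difference of 1.37 ± 0.87 was 0.21 on plate 3 and 0.70 as a ratio of means. Hoxd8 was shared, with medians of 17.1 TPM in LS and 13.4 TPM in TL. Of the Hox 1 to 7 list, 1 of 2 tested genes was past the fold, higher in TL. This was Hoxd1, which lies at the opposite end of the Hoxd cluster and is known from mouse nociceptors, with 57.1 TPM (4.44 to 207) in TL and 33.5 TPM (0 to 122) in LS as medians and a difference of -1.15 ± 0.62, or -0.88 without plate 5. Hoxb7 did not reach the mean for testing. It was at 10 TPM or more in 18 of 54 TL and 0 of 21 LS members, which allows a share of up to 14.3% in LS.

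**Figure D3:**
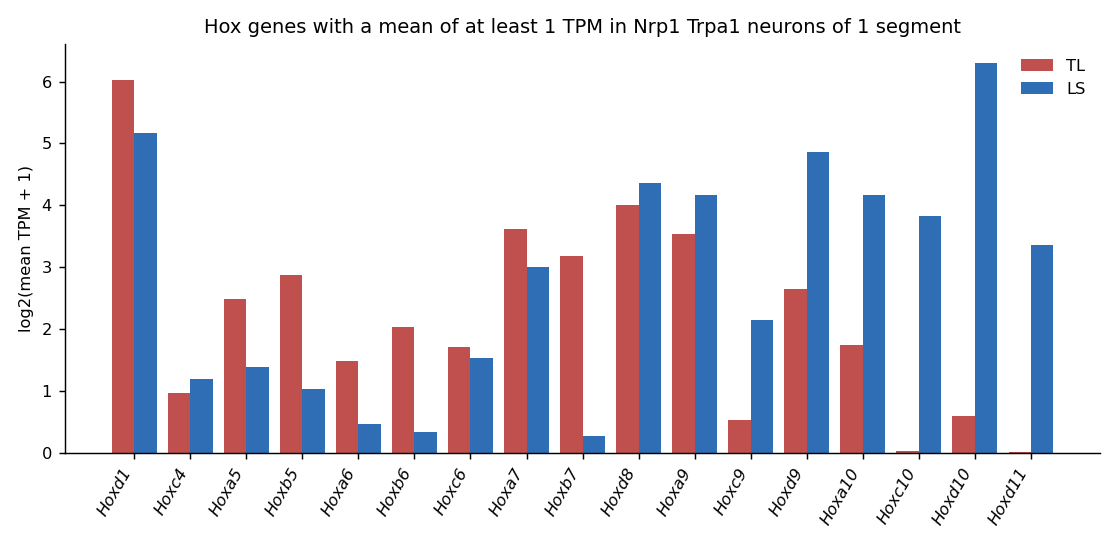
Hox genes with a mean of at least 1 TPM in members of either level, ordered by number. Bars give log2(mean TPM + 1) over 54 TL (red) and 21 LS (blue) members; there are no error bars because each level is 1 sample. The mean of Hoxc10, Hoxd10 and Hoxd11 is at most 0.51 TPM in TL, and that of Hoxb7 is 0.21 TPM in LS.

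Of the nicotinic receptor genes, 2 neighbours on chromosome 9 were past the fold, both higher in LS. Chrna3 (chr9:55010111-55026562, minus strand), the alpha 3 subunit of ganglionic acetylcholine receptors, was at or above 10 TPM in 43 of 54 TL (79.6%, interval 66.5 to 89.4%) and in all 21 LS members (83.9 to 100%). Its median was 316 TPM (0 to 723) in TL and 598 TPM (86.5 to 943) in LS. The levels overlapped, but no LS member was without the transcript while 9 TL members were at 0. The difference was 2.27 ± 0.65 on the log2(TPM + 1) scale, where neurons at 0 weigh heavily, and 0.75 as a log2 ratio of mean TPM. Chrnb4, its beta 4 partner subunit (chr9:55028154-55048779, minus strand), had medians of 261 TPM (0 to 658) in TL and 388 TPM (27.2 to 494) in LS, with a difference of 1.21 ± 0.73 that was 0.12 on plate 4 and 0.37 as a ratio of means. Of 7 nicotinic and muscarinic receptor genes tested, these 2 were past the fold, beside 1.08% of all genes tested that were higher in LS. Chrna6 (medians 166 and 235 TPM in TL and LS) and Chrnb3 (157 and 124 TPM) were not.

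The windows around the start sites of 2 neighbouring Hox genes and of both nicotinic subunits are shown because each pair lies within 1 cluster and moved the same way. The sequences are from RefSeq (GRCm38.p6) and run from 250 bases before to 50 bases after the annotated start, 5′ to 3′ on the strand of the gene. Capitals mark GGGCGG, the GC box bound by Sp1, on either strand. The other motif searched was TTTATNG, a pattern bound by posterior Hox proteins, also on either strand, and it was not found in these 4 windows. GGGCGG is in 35.7% and TTTATNG in 10.9% of all 32851 windows of this length. The Hoxd10 window (chr2:74691641-74691940) and the Chrnb4 window (chr9:55048495-55048794) hold neither motif, the Hoxd9 window (chr2:74697513-74697812) holds the GC box once on each strand and the Chrna3 window (chr9:55026513-55026812) holds it once on the other strand.
Hoxd10: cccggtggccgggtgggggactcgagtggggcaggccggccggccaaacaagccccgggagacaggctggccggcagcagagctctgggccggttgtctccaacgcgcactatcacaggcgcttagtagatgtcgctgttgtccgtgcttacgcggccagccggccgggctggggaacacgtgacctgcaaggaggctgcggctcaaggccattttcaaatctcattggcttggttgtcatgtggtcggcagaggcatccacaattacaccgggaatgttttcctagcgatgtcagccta
Hoxd9: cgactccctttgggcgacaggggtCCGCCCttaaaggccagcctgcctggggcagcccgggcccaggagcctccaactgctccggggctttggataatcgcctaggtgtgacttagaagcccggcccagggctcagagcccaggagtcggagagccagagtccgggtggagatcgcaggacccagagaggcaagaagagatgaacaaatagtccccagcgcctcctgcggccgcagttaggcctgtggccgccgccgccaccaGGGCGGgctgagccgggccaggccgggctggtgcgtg
Chrna3: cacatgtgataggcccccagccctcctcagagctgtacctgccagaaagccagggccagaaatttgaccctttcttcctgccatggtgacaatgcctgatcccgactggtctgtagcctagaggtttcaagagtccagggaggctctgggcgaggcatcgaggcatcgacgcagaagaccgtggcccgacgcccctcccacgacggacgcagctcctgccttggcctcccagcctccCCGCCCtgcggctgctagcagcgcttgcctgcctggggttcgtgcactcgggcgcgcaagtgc
Chrnb4: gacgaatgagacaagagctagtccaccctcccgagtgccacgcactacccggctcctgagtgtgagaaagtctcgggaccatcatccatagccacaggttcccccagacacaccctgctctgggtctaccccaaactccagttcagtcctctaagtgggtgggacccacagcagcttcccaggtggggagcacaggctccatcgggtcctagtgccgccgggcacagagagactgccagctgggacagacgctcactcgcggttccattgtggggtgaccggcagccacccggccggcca

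Neuropeptide genes were shared by both levels. Of 10 tested, 3 were past the fold and higher in LS, beside 1.08% of all genes tested: Tac1, given above, Cartpt and Adm. Cartpt, which encodes the cocaine- and amphetamine-regulated transcript peptide, had a median of 1063 TPM (0 to 6688) in TL and 2868 TPM (79.6 to 12280) in LS. The ranges overlapped for most neurons, and the difference was 2.11 ± 1.27, with plate values from 0.92 to 3.68. Adm, which encodes the vasodilator adrenomedullin, reached 10 TPM in 9 of 54 TL and 12 of 21 LS members and differed by 2.07 ± 0.37. Adcyap1, which encodes the peptide PACAP, had medians of 922 TPM in TL and 1540 TPM in LS, a difference of 0.81 that was not past the fold. Galanin (Gal) had medians of 4687 and 2982 TPM.

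Receptors that act on these neurons differed gene by gene. Osmr, the oncostatin M receptor, reached 10 TPM in 11 of 54 TL (20.4%, 10.6 to 33.5%) and 14 of 21 LS members (66.7%, 43.0 to 85.4%). With neurons thinned to at most 500000 reads and a minimum of 5 reads in place of 10 TPM, the shares were 61.1% in TL and 100% in LS. Its median was 2.08 TPM (0 to 101) in TL and 24.4 TPM (2.51 to 156) in LS, and the difference was 2.36 ± 1.18, with 0.61 on plate 4. Its co-receptor Il6st had medians of 58.6 and 57.0 TPM. Osmr was the only 1 of 13 cytokine and innate receptor genes tested that was past the fold. Npy1r, the inhibitory Y1 receptor of neuropeptide Y, had a median of 24.8 TPM (0 to 250) in TL and 67.9 TPM (8.19 to 323) in LS and differed by 2.14 ± 1.34, with 0.26 on plate 3 and 1.24 as a ratio of means. It was the only 1 of 13 inhibitory receptor genes past the fold. The mu opioid receptor gene Oprm1 had medians of 54.7 TPM in TL and 48.6 TPM in LS. Of 16 inflammatory mediator receptor genes tested, 1 was past the fold and higher in LS and 3 were higher in TL. The shares over all genes tested were 1.08% and 1.94%. The gene higher in LS was Cysltr2, a leukotriene receptor (1.17 ± 0.84, or 0.81 without plate 6). It reached 10 TPM in only 6 of 75 members, with a median of 0 TPM. The 3 were Ptgdr, a prostaglandin D2 receptor (-1.20 ± 0.54), Mrgprx1, an itch-related receptor (-1.07 ± 1.21, or -0.49 without plate 4), and the endothelin receptor gene Ednrb (-2.62 ± 0.72). Among the members under 500 TPM of summed satellite glia genes, which are described further on, Ednrb differed by -0.11. With Nrp1 and Trpa1 at 20 TPM or more, Ptgdr differed by -0.41.

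The ATP-gated channel genes P2rx2 and P2rx3 differed in opposite directions. Their products assemble into P2X2/3 receptors in sensory neurons. P2rx3 (chr2:84998583-85037462, minus strand) had a median of 64.8 TPM (0 to 525) in TL and 18.2 TPM (0 to 179) in LS, a difference of -1.58 ± 0.64. P2rx2 reached 10 TPM in 8 of 54 TL (14.8%, 6.62 to 27.1%) and 12 of 21 LS members (57.1%, 34.0 to 78.2%) and differed by 1.78 ± 0.77. Both genes overlapped between the levels. P2rx3 shares exon sequence with Ssrp1 on the opposite strand, and reads of the 2 cannot be told apart without strand. With Trpv1, these were 3 of 17 transduction channel genes past the fold, beside 3.02% of all genes tested in either direction. Piezo2, a mechanotransduction channel gene, and Asic3, an acid-sensing channel gene, had medians at or near 0 at both levels. Piezo2 still reached 10 TPM in 14 of 54 TL and 4 of 21 LS members, and Asic3 in 11 of 54 TL and 2 of 21 LS members.

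Potassium channel genes gave 2 of 21 past the fold, both higher in TL, beside 1.94% of all genes tested. Kcnc4 (chr3:107438303-107459552, minus strand), which encodes the fast-inactivating channel Kv3.4, reached 10 TPM in 36 of 54 TL members (66.7%, 52.5 to 78.9%) and 1 of 21 LS members (4.76%, 0.12 to 23.8%). Its median was 25.2 TPM (0 to 111) in TL, and in LS it was at 0 in 17 neurons and at most 13.9 TPM. The difference was -3.16 ± 1.02, the largest in the TL direction among genes of neuronal lists. Kcng1, a modifier subunit, differed by -1.22 ± 0.51, or by -0.75 with Nrp1 and Trpa1 at 20 TPM or more. Npffr2, the receptor of neuropeptide FF, was no list member but past the fold, and is named after its values were seen. It reached 10 TPM in 32 of 54 TL and 4 of 21 LS members and differed by -2.31 ± 0.96. Casp1, which encodes the interleukin 1 beta converting protease and was likewise chosen after its values were seen, reached 10 TPM in 43 of 54 TL and 7 of 21 LS members and differed by -2.19 ± 0.79.

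**Figure D4:**
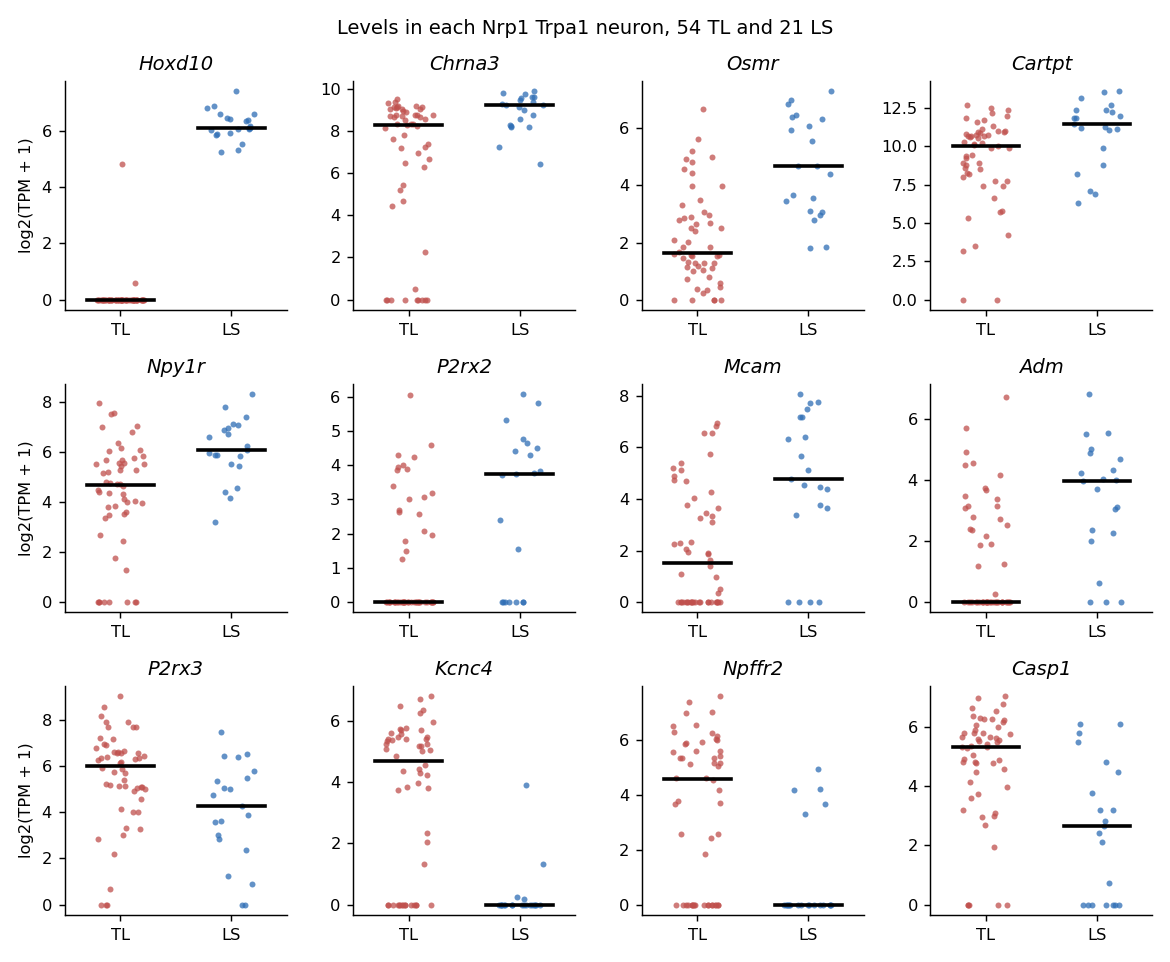
Log2(TPM + 1) in each of 54 TL (red) and 21 LS (blue) Nrp1 Trpa1 neurons for 12 genes, with lines at the medians. Hoxd10 does not overlap, with the highest TL neuron at 27.0 TPM and the lowest LS neuron at 36.8 TPM, P2rx2 and Adm have a TL median of 0, and Kcnc4 and Npffr2 have an LS median of 0.

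Other leading genes higher in LS were of mixed function. Mcam, a cell adhesion molecule of the immunoglobulin family, reached 10 TPM in 16 of 54 TL and 16 of 21 LS members and differed by 2.75 ± 0.71. Sdc1, the heparan sulphate proteoglycan syndecan 1, reached 10 TPM in 7 of 54 TL and 17 of 21 LS members and differed by 2.49 ± 0.33, one of the narrowest spreads over plates. Serpina3c, a serine protease inhibitor, differed by 2.80 ± 0.87 and Adgrg2, an adhesion G protein-coupled receptor, by 2.49 ± 0.96. Cyp1b1, a cytochrome P450 enzyme, differed by 2.51 ± 0.52 but by 1.00 as a ratio of means. Rprm (2.27 ± 1.45, and 1.27 as a ratio of means), Cygb (2.20 ± 1.96) and the activin receptor gene Acvr1 (2.14 ± 1.12) had wide spreads, and Cygb differed by 0.11 on plate 3.

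Of 11 tested genes known from injured sensory axons, 5 were past the fold and higher in LS members and 0 were past the fold and higher in TL, beside 1.08% and 1.94% of all genes tested. The median difference of the list was 0.95. The summed level of the list, in contrast, had medians of 6129 TPM in TL and 4740 TPM in LS. Atf3, a transcription factor induced when an axon is cut, had a median of 116 TPM (1.17 to 492) in TL and 351 TPM (9.85 to 1222) in LS, a difference of 1.19 ± 0.44. Sox11, another such transcription factor, differed by 1.12 ± 0.18, Flrt3 by 1.20 ± 0.65, Ecel1 by 1.35 ± 0.72 and Stmn4 by 1.91 ± 0.73. These 4 genes were low, with medians over all 75 members of 8.41, 8.59, 0 and 2.84 TPM in that order. Gap43, a growth cone protein, had medians of 1222 and 1372 TPM and was not past the fold. Immediate early genes, which respond within minutes to stimulation and to dissociation, gave 3 of 11 higher in TL (Fos -1.47 ± 0.59, Egr1 -1.18 ± 0.48 and Nr4a1 -1.99 ± 1.29) and 1 higher in LS, which was Atf3. For Egr1 the LS median was not below that of TL. Only 23 of 54 TL members lay above the LS median, and 12 of 21 LS members lay above the TL median. In members with under 500 TPM of satellite glia genes none of the 3 differed by 1 (Fos -0.92, Egr1 0.07 and Nr4a1 -0.66), and the median of the list was 0.30, beside -0.08 over all members. The time from surgery to culture differed between animals by the study's methods and is not given per neuron, so its part was not tested.

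Transcripts of genes known from satellite glia, the cells that wrap each sensory cell body, were read in many of the picked neurons, more so in TL. The summed level of 10 satellite glia genes had a median of 2102 TPM (21.6 to 24322) in TL and 86.1 TPM (33.9 to 6789) in LS members. Where the sum was highest, Apoe alone made up most of it. It gave 21962 of 24322 TPM in the highest TL member and 6322 of 6789 TPM in the highest LS member. In the lowest LS member it gave 1.38 of 33.9 TPM. Of the list genes, Apoe, Fabp7 and Ptprz1 were past the fold and higher in TL, as was Mal of the myelin list. Of the 5 myelin genes tested, 3 were not past the fold. Summed myelin genes had medians of 1129 TPM in TL and 1217 TPM in LS. Summed macrophage genes had medians of 45.2 TPM in TL and 61.9 TPM in LS, and the 1 macrophage gene tested, C1qb, was past the fold and higher in LS (1.05 ± 0.27, and 0.20 as a ratio of means). Summed endothelial (62.1 and 56.6 TPM) and fibroblast (1.60 and 0.155 TPM) genes were low at both levels.

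Under 500 TPM of summed glial genes lay 16 TL and 13 LS members, and their mean log2(TPM + 1) was compared without plates. These neurons are part of the 54 TL and 21 LS members in which the genes past the fold were found. That a gene still differed is therefore partly built in and is no independent check. Over all genes tested in these neurons, 173 were at least 1 higher in LS and 158 at least 1 higher in TL. Of the 82 genes higher in LS, 68 (82.9%) still differed by at least 1 in that direction and none was reversed. Of the 148 genes higher in TL, 69 (46.6%) still did, 62 kept their sign below 1 and 17 changed sign. Hoxd10 (5.83), Hoxc10 (3.57), Chrna3 (2.41), Osmr (2.12), Mcam (3.48) and Atf3 (1.85) were among the former. P2rx2 differed by 0.89 in these neurons. Among genes higher in TL, Kcnc4 (-3.39), Npffr2 (-3.49), Casp1 (-2.95), P2rx3 (-2.45), Igfbp2 (-2.28), Tspo (-3.38) and Ndrg1 (-2.51) still differed by at least 1. Ifitm3 (-0.16), Cxcl10 (-0.67) and Sdc4 (-0.97) did not, nor did Ednrb, Fos, Egr1 and Nr4a1, given above. Fabp7 (-0.85), Apoe and Ptprz1 are among the summed glial genes that set the limit. A smaller difference of these genes was therefore built into the choice of neurons and is no result. The remaining leading genes on the TL side were Apoe (-3.66 over all members and -1.45 under 500 TPM), Selenop (-2.50 and -1.60), Dcn (-2.78 and -1.95), Ighm (-2.41 and -2.72), Gm13373 (-3.08 and -2.88) and Gm26233 (-3.19 and -4.53). Gm26233 differed by -0.95 when recovered reads scaled to a common total (CPM) took the place of TPM.

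**Figure D5:**
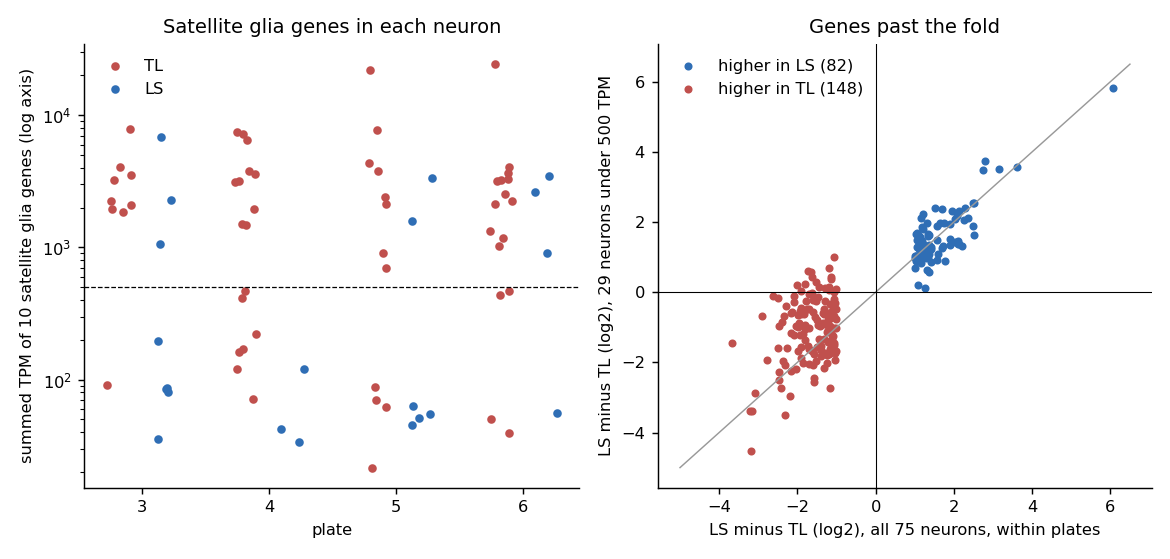
Left, summed TPM of 10 satellite glia genes in each member by plate on a log axis, TL in red and LS in blue, with a dashed line at 500 TPM. Right, LS minus TL differences (log2) of the 230 genes past the fold in all 75 members (horizontal) against the 29 members under 500 TPM, pooled over plates (vertical), with a line of equality; blue points (82, higher in LS) lie near the line and many red points (148, higher in TL) lie closer to 0.

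The members varied among themselves at both levels. Within plate and level, the median SD on the log2(TPM + 1) scale was 1.21 over 262 list genes and 0.75 over all genes tested. Of those 262 genes, 38 were at 10 TPM or more in every member and 101 in 25 to 75% of members. Gap43 (SD 0.34), Prph, which encodes the intermediate filament peripherin (0.37), and Klf7 (0.37) varied least among genes above 10 TPM in every member. Htr3a, which encodes the ionotropic serotonin receptor subunit, varied most (SD 3.60), from 0 to 7209 TPM. Its median was 32.5 TPM in TL and 140 TPM in LS, and with 1 plate of opposite sign it was not past the fold. The 7 members with Gfra3 below 10 TPM, 5 TL and 2 LS, had Trpa1 at a median of 35.4 TPM (17.0 to 118), beside 538 TPM in the 68 with Gfra3. They also had lower Cartpt (median 52.9 against 1643 TPM) and higher Htr3a (768 against 32.5 TPM) and Asic3 (179 against 0 TPM), while Calca was at 20363 and 27873 TPM. These groups were formed after the values were seen and were not tested.

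The same within-plate differences were taken in the neurons outside the rule, with each set having TL and LS neurons of its own. Of the 82 genes higher in LS members, 47 were also at least 1 higher in LS among all other neurons (58 TL and 101 LS), where 6.03% of all tested genes were; of the 148 higher in TL members, 61 were, against 3.81%. Among neurons with Trpa1 but no Nrp1, 52 of the 82 and 71 of the 148 genes were, against 8.69% and 4.87% of all tested genes. Plates and cultures are common to all these sets. Hoxd10 differed by 6.16 and Hoxc10 by 3.97 in the 30 TL and 30 LS neurons with Trpa1 but no Nrp1. Chrna3 differed by 5.79 and Cartpt by 5.48 among all other neurons, in which Chrna3 reached 10 TPM in 16 of 58 TL and 93 of 101 LS neurons. Osmr differed by 2.36 in members and 0.40 among all other neurons, Atf3 by 1.19 and 0.06, Sox11 by 1.12 and 0.04, and Npffr2 by -2.31 and 0.58. All other neurons are a mixed set, and the values of these genes in neurons with Trpa1 but no Nrp1 are not given here. Whether members and other neurons differ in these values was not tested.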

How the data were processed

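Single neurons were sequenced by Smart-seq2 (75 bp paired-end reads per the study's methods). Per the labels, the authors used bcl2fastq 2.15.0.4, STAR 2.4.1 and featureCounts 1.4.4 with genome build GRCm38.p3. The deposited table holds 1 score per gene and neuron on a log2 scale, log2(x + 1), where x is proportional to reads per gene length. It has 45513 gene identifiers and 325 neurons; 74 further neurons and 13 bath controls in the labels were not analysed here. Values were computed as x = 2 to the power of the value, minus 1, rescaled to sum to 1000000 per neuron (TPM). 65.0% of values above 0 gave whole reads with GENCODE M21 gene lengths (relative tolerance 1e-06); for 8712 genes the smallest length that made all values whole was used, so read totals are estimates. Of the identifiers, 44585 had a symbol.

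Neurons were grouped by the labels' segment. Genes with a mean of at least 10 TPM in members of 1 segment were tested, with a pseudocount of 1 TPM. Named genes were the 15 with the largest average difference in each direction past the fold, list members past the fold, the peptidergic list whole and Hox genes 8 to 13; genes not past the fold are named as examples, chosen after their values were seen. The 38 gene lists (759 symbols) and the members were chosen with earlier results of these data known. The scripts were tested on simulated data. Exact intervals came from scipy 1.17.1, tables from pandas 2.3.3 and numpy 2.4.6, Python 3.11.15. Exon overlaps and coordinates are from GENCODE M21; strand was not used in counting as far as the sources state, so overlapping genes are uncertain. A few genes are not reported here. Alternatives changed the pseudocount, scaling, averaging, rule limits, plates and glial content.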

Additional observations from a re-analysis of the deposited data

Results flagged for a closer look

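Genes were flagged where all 4 plates went one way in Nrp1 Trpa1 neurons and all 4 the opposite way in all other neurons. None of these contrasts between sets was itself tested. All other neurons are a mixed set whose make-up differs between levels. On these plates, neurons with neither Nrp1 nor Trpa1 numbered 2 in TL and 62 in LS. Ntm reached 10 TPM in 0 of 58 TL and 34 of 101 LS neurons of this set. The opposite signs are thus not from matched neurons. Dcn, which encodes the matrix proteoglycan decorin and is also a marker of the pPEP class in the study's table, was -2.78 in members and 2.59 in all other neurons, where its mean was 33.1 TPM in TL and 319 TPM in LS. Sdc1 was 2.49 in members and -1.38 in all other neurons, with means of 26.4 TPM in TL and 5.19 TPM in LS there. Maob, a monoamine oxidase, was -1.90 in members and 1.29 in all other neurons, with means of 13.2 TPM in TL and 95.1 TPM in LS there.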

How the results depend on the processing

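The count of genes higher in LS (82) was 136 with a pseudocount of 0.1 TPM, 20 with 10 TPM, 133 with neurons pooled without plates, 43 with the log2 ratio of mean TPM and 138 with the deposited values unscaled, which moved the median of all genes from -0.02 to 0.26. It was 173 in members under 500 TPM of glial genes, an alternative added after seeing the data, as were those under 2000 TPM, with CPM of recovered reads, with plates of 1 member per level and without the TL member with Hoxd10. Counts from pooled neurons, among them the 133 and the 173, had no same-sign condition. They are therefore looser than the 82. The count higher in TL (148) was 39 with a pseudocount of 10 TPM and 251 both with a mean of at least 1 TPM and with no minimum, and 144 with neurons pooled. Leaving out each plate gave 89 to 125 genes higher in LS (125 without plate 4) and 158 to 192 higher in TL. There the same sign was required on the remaining plates only, which is also a looser condition. The share of TL neurons in the rule was 36.7% at 20 TPM. Of 60 named genes, 1 changed sign in any of these settings, Egr1 (0.069 under 500 TPM of glial genes). Without 1 plate, differences under 1 were also found for Ptprz1 (-0.82) and Mal (-0.87) without plate 4, and Flrt3 (0.92) and C1qb (0.95) without plate 6. With the rule at 20 TPM, Mrgprx1 was at -0.26 and Hoxd1 at -0.81, and with Gfra3 and Calca required Chrnb4 was at 0.75. No member had Ntm at 10 TPM, so leaving such neurons out changed nothing. No paired analysis was possible because the labels number neurons without pairing them across levels and no test was made. Low levels limit the shares: 1 LS member had under 500000 reads, and after thinning to 500000 reads with a minimum of 5 reads Sox11 was found in 79.6% of TL members, beside 25.9% at 10 TPM.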

Other observations

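Among the 14 guidance receptor and ligand genes tested, 1 was past the fold, Sema5a, higher in TL (-1.24 ± 0.42, SD over 4 plates). Nrp2, the paralogue of Nrp1, had medians of 7.62 TPM in TL and 16.4 TPM in LS, a difference of 1.00 with 1 plate of opposite sign. Of 25 adhesion molecule genes, Flrt3 was higher in LS and Cdh13 higher in TL (-1.23 ± 0.44). Of 17 sensory lineage transcription factor genes, Sox11 alone was past the fold; Pou4f1, Isl1 and Prrxl1 were at 10 TPM or more in every member of both levels. None of the 13 mitochondrial genome transcripts was past the fold, and their summed level had medians of 20674 TPM in TL and 20387 TPM in LS. Syt10 and Npy1r, both in the pPEP marker list that the study chose on these neurons, were higher in LS, and Dcn of the same list higher in TL; 5 of its 8 tested genes were not past the fold.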
